A study of Mus musculus with 6 samples.

Results

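The 38 genes described here encode the enzymes and carriers of fatty acid oxidation together with nuclear receptors of the PPAR family and some of their target genes. They were chosen by symbol, and each of the 38 had 1 row among the 53715 genes of the deposited table. The cells were an immortalized mouse podocyte line, derived from the epithelial cell that covers the capillaries of the kidney glomerulus. It was grown at 33 °C with 10% serum and interferon gamma, then moved to 37 °C for 10 to 14 days, on type I collagen (12 mg/ml) and 5% serum, to differentiate. The control group, labelled WT, was transfected with a scrambled siRNA, and the other group, labelled TFEB knockdown, with an siRNA against Tfeb, the transcription factor of lysosome and autophagy genes; each group had 3 libraries. All cells were of 1 line, and the sources used here do not give the siRNA sequences or the time after transfection.

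Fatty acids are first joined to coenzyme A by acyl-CoA synthetases, and long chains then enter mitochondria through the carnitine shuttle. Inside, each turn of the beta-oxidation spiral passes through a dehydrogenase, a hydratase, a second dehydrogenase and a thiolase, which releases acetyl-CoA. Peroxisomes run a similar spiral on very long and branched chains. PPAR alpha, delta and gamma are receptors for fatty acids that pair with RXR on DNA and are known to activate many of these genes. In liver, TFEB is known for a part in the fasting response through Ppara and its coactivator Ppargc1a.

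The libraries held 18062898 to 20610888 derived reads. Levels are in FPKM, fragments per kilobase of the gene's exons per unit of library depth. A change is a difference on the log2(FPKM + 0.5) scale, Tfeb siRNA minus scrambled siRNA. Each adjusted p comes from limma fitted to the 12257 genes whose mean reached 1 FPKM, except where an alternative setting is named. "Higher", "lower", "rose" and "fell" mean an adjusted p below 0.05, and errors are SD over n = 3 libraries unless SE is named. Tfeb had 1.80, 2.05 and 2.27 FPKM after scrambled siRNA and 0.639, 0.714 and 0.822 FPKM after Tfeb siRNA (limma adjusted p = 0.00148). Of 10 podocyte markers, 5 had a mean of 1 FPKM or more, among them Synpo and Actn4, whereas Nphs1, Wt1, Tcf21 and Ptpro were among those below it. Of 6 proximal tubule markers, 3 did: over the scrambled siRNA libraries Aqp1 had a mean of 146 FPKM, Lrp2 52.5 and Cubn 1.18, while Slc34a1, Slc5a2 and Slc22a6 were near 0. Their sum ran from 176 to 227 FPKM after scrambled siRNA and from 181 to 218 FPKM after Tfeb siRNA. Of 4 mesangial markers, 2 did, Pdgfrb and Gata3, with no call. Summed leukocyte markers ran from 9.14 to 11.1 FPKM after scrambled siRNA and from 6.07 to 7.25 FPKM after Tfeb siRNA, with Csf1r lower and Ptprc near 0; their part in the results was not tested. The summed endothelial, adipocyte and hepatocyte markers reached at most 0.575 FPKM in any library. In bulk RNA, fewer cells of a type and less RNA per cell cannot be told apart.

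More of the fatty acid oxidation genes fell than rose after Tfeb siRNA, with small changes in most of them. Of the 38 genes, 33 passed the filter on low values: 2 of them rose, 10 fell, and the other 21 were not called. Among all 12257 tested genes 33.3% passed in either direction, 16.9% as higher and 16.4% as lower, while in the set 36.4% passed, 6.06% as higher and 30.3% as lower. The median log2 fold change was -0.07 over the 33 genes and 0.02 over all tested genes. The groups did not overlap for 6 genes in the higher direction and 12 in the lower, where 25.3% and 23.5% of all tested genes did so. Apart from Vnn1, the largest fall was 1.70-fold, in Acsl1, and the largest rise 1.31-fold, in Acsl5.

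**Figure D1:**
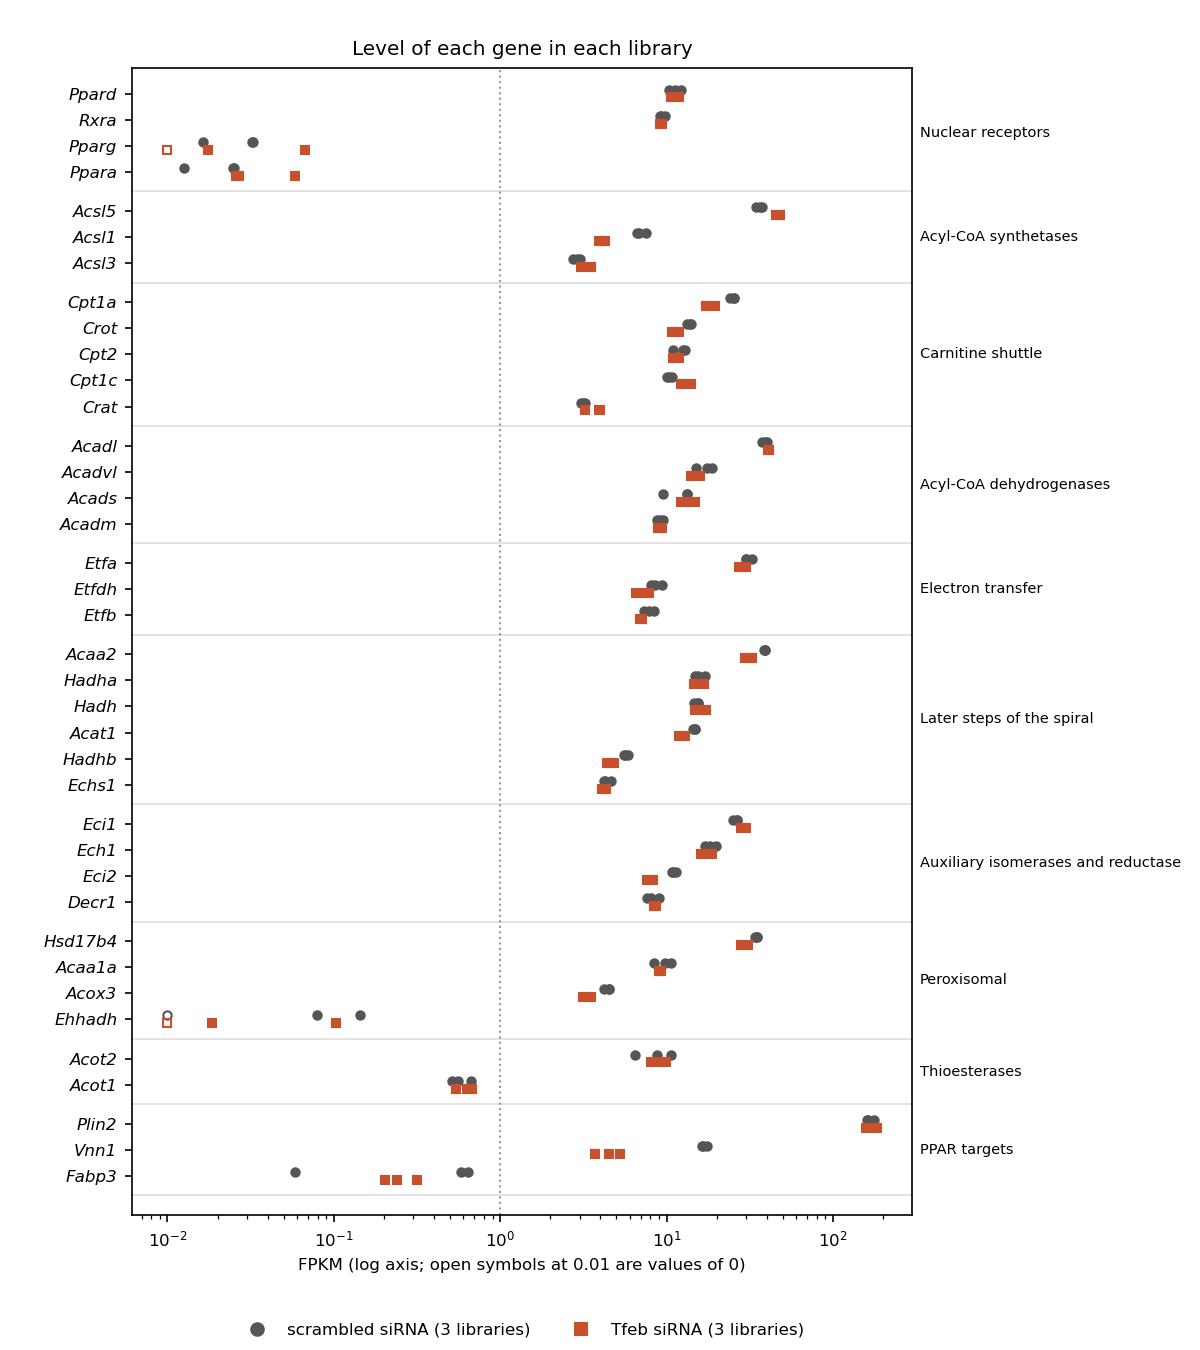
FPKM of the 38 genes in each library, on a log axis, grouped by role, with scrambled siRNA libraries as circles and Tfeb siRNA libraries as squares. The dotted line marks 1 FPKM, and open symbols at the left edge stand for 0. Vnn1, Acsl1, Cpt1a and Eci2 show Tfeb siRNA libraries apart from and below the scrambled siRNA libraries, while Ppara, Pparg, Ehhadh, Acot1 and Fabp3 lie left of the line.

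The receptors showed no change that passed the test. Ppard, the widely expressed PPAR delta (chromosome 17, 28232754 to 28301469, plus strand), had 10.3, 12.2 and 11.3 FPKM in replicates 1, 2 and 3 of scrambled siRNA and 10.8, 10.6 and 11.8 FPKM in replicates 1, 2 and 3 of Tfeb siRNA. These ranges overlap (log2 fold change -0.02, SE 0.08, adjusted p = 0.869). Rxra, the partner receptor (chromosome 2, 27676440 to 27762957, plus strand), had 9.15, 9.85 and 9.31 FPKM after scrambled siRNA and 9.17, 9.34 and 9.35 FPKM after Tfeb siRNA, again with overlapping groups (log2 fold change -0.02, SE 0.05, adjusted p = 0.788). The receptors best known for fatty acid oxidation and for fat storage were almost undetected. Ppara rested on 5 reads over the 3 scrambled siRNA libraries and 8 over the 3 Tfeb siRNA libraries, with 0.0125, 0.0252 and 0.0249 FPKM after scrambled siRNA and 0.0582, 0.0257 and 0.0270 FPKM after Tfeb siRNA. Pparg rested on 5 and 5 reads, with 0.0325, 0.0164 and 0.0324 FPKM after scrambled siRNA and 0, 0.0669 and 0.0175 FPKM after Tfeb siRNA. Neither entered the test, and at this depth a difference of either was not detectable (exact two-sided permutation p = 0.10 for Ppara, the smallest that 3 against 3 allows, and 0.900 for Pparg). On the FPKM scale, which is per length, Ppard had the highest level of the 3 PPAR genes.

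Of the 3 genes usually counted as PPAR targets outside the oxidation enzymes, 1 fell steeply, 1 stayed high and 1 was nearly absent. The share that fell over all tested genes was 16.4%, and so few genes allow no comparison with it. Vnn1, the pantetheinase that releases pantothenate, the precursor of coenzyme A (chromosome 10, 23894688 to 23905343, plus strand), had 16.5, 16.3 and 17.4 FPKM in replicates 1, 2 and 3 of scrambled siRNA and 5.26, 4.5 and 3.71 FPKM in replicates 1, 2 and 3 of Tfeb siRNA. Every Tfeb siRNA library lay far below every scrambled siRNA library, a 3.73-fold fall of the mean (log2 fold change -1.80, SE 0.11, adjusted p = 0.000198). Plin2, which coats lipid droplets, was the most abundant of the 38 genes, at 167 ± 9.25 and 174 ± 13.3 FPKM, and did not pass (adjusted p = 0.600). Fabp3, the muscle-type fatty acid binding protein, stayed below the filter with 22 and 12 reads, and 37.3% of its 50-base words recur in other transcripts.

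**Figure D2:**
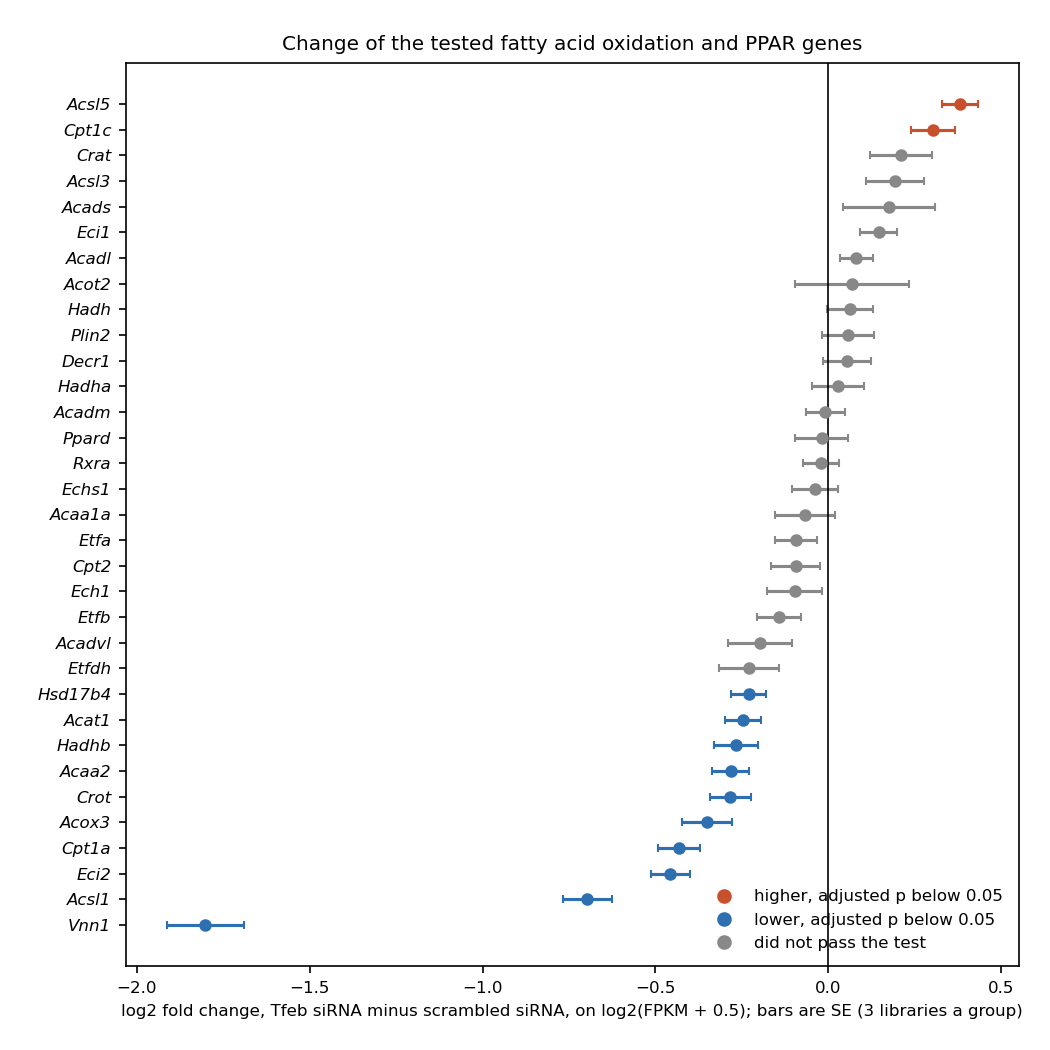
Log2 fold change of the 33 tested genes, Tfeb siRNA minus scrambled siRNA, with SE bars, ordered by size and coloured by the limma call. Vnn1 stands apart at -1.80, 9 other genes are lower and 2 are higher.

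Of the 3 acyl-CoA synthetase genes in the set, 1 fell and 1 rose, while activation itself was not measured. Over all tested genes 16.4% fell and 16.9% rose, and 3 genes are too few to compare with those shares. Acsl1, the long-chain acyl-CoA synthetase of oxidative tissues (chromosome 8, 46471037 to 46536051, plus strand), had 7.56, 6.60 and 6.81 FPKM in replicates 1, 2 and 3 of scrambled siRNA and 4.25, 3.95 and 4.15 FPKM in replicates 1, 2 and 3 of Tfeb siRNA. The groups lie well apart (log2 fold change -0.70, SE 0.07, adjusted p = 0.000822). Exons of Gm45244 on the other strand overlap 9.91% of its exon bases. Acsl5, a synthetase found at mitochondria and the endoplasmic reticulum (chromosome 19, 55251938 to 55297720, plus strand), moved the other way, with 34.5, 37.2 and 36.5 FPKM in replicates 1, 2 and 3 of scrambled siRNA and 48.0, 45.6 and 47.8 FPKM in replicates 1, 2 and 3 of Tfeb siRNA. No Tfeb siRNA library overlapped a scrambled one (log2 fold change 0.38, SE 0.05, adjusted p = 0.00218). Acsl3, linked to lipid droplet growth, had 2.87 ± 0.139 and 3.36 ± 0.275 FPKM, with groups apart in the higher direction, and did not pass (adjusted p = 0.121). Acsl5 had the highest FPKM of the 3, and the summed FPKM of the 3 synthetases was 45.1 to 46.6 after scrambled siRNA and 53.1 to 55.7 after Tfeb siRNA.

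Carnitine shuttle genes also moved in both directions, with 1 higher and 2 lower of 5 tested. The shares over all tested genes were 16.9% and 16.4%, and 5 genes are too few for a comparison. Cpt1a, the outer-membrane carnitine palmitoyltransferase that sets the pace of mitochondrial entry, had 23.9, 25.4 and 25.3 FPKM in replicates 1, 2 and 3 of scrambled siRNA and 19.6, 17.3 and 18.0 FPKM in replicates 1, 2 and 3 of Tfeb siRNA. It fell 1.36-fold with no overlap (log2 fold change -0.43, SE 0.06, adjusted p = 0.00242). Cpt1c, the isoform best known from neurons and the endoplasmic reticulum, with little oxidative activity, had 10.1, 10.8 and 10.4 FPKM after scrambled siRNA and 12.2, 13.9 and 12.8 FPKM after Tfeb siRNA. It rose 1.25-fold (log2 fold change 0.30, SE 0.06, adjusted p = 0.0113). Crot, the peroxisomal carnitine octanoyltransferase, had 14.1, 13.3 and 13.8 FPKM after scrambled siRNA and 11.9, 10.7 and 11.0 FPKM after Tfeb siRNA. That is a fall of 1.23-fold without overlap (log2 fold change -0.28, SE 0.06, adjusted p = 0.0108). Cpt2, which returns acyl groups to coenzyme A in the matrix, had 12.1 ± 0.982 and 11.3 ± 0.475 FPKM (adjusted p = 0.349). Crat, the carnitine acetyltransferase, had 3.14 ± 0.0827 and 3.72 ± 0.412 FPKM, with groups apart in the higher direction (adjusted p = 0.118); it passed as higher without Tfeb siRNA replicate 2 (adjusted p = 0.0413).

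The promoters of both Cpt1 genes are shown because the isoforms moved in opposite directions and they are the called genes whose promoter window held a searched motif, among the 8 called genes with a promoter entry. The other 4, Vnn1, Acaa2, Acat1 and Hsd17b4, were not searched. Each line gives the 250 bases before the start site in RefSeq's GRCm38.p6 build, 5′ to 3′ on the gene's strand, with AGGTCA, the hexamer that nuclear receptors bind, or its reverse complement, in capitals. The Cpt1a window is chr19:3323051-3323300 on the plus strand and the Cpt1c window chr7:44974852-44975101 on the minus strand.
Cpt1a: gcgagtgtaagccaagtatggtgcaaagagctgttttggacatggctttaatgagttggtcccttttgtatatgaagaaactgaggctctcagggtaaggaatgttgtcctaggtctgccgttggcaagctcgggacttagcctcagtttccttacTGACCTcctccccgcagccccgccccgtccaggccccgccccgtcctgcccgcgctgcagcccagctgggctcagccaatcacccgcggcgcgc
Cpt1c: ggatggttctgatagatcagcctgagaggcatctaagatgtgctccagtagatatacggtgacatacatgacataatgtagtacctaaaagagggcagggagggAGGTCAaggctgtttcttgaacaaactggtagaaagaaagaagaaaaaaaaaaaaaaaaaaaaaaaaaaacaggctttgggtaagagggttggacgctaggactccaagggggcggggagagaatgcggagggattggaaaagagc
Each window held 1 hexamer, 94 bases before the start in Cpt1a, on the opposite strand, and 146 bases before it in Cpt1c, on the gene's strand. The GC content was 59.6% in Cpt1a and 44.0% in Cpt1c.

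RefSeq promoters (250 bases before to 50 after the start, both strands searched) were found for 32 of the 38 genes (not for those 4, Crat and Decr1), and a gene was counted if any of its windows held the motif. AGGTCA was present in 8 of the 32 (25.0%), namely Acadm, Acadvl, Cpt1a, Cpt1c, Echs1, Plin2, Pparg and Rxra, against 14.5% of 8495 tested genes and 16.3% of all 32851 windows. As a direct repeat with any 1 base between the copies, the form bound by PPAR and RXR, it was found in 0 of the 32 and in 0.0396% of all windows. CACGTG, the E-box core bound by TFEB and related factors, was present in 1 of the 32, Plin2, against 12.1% of tested genes and 7.15% of all windows. The longer TCACGTG, which overlaps it, was likewise found in Plin2 alone, against 7.35% and 3.77%. The 30 bases around that E-box, shown since it is the only one in the set, lie at chr4:86670046-86670075 on the minus strand, with the core in capitals.
Plin2: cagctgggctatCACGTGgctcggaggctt
A match is a description of letters and no measure of binding.

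Acyl-CoA dehydrogenases, which open each turn of the mitochondrial spiral, had 0 of 4 members called. Among all tested genes 33.3% were called, and 4 genes are too few to compare with that share. Acadl, the long-chain enzyme, was the most abundant at 38.9 ± 1.21 and 41.1 ± 0.418 FPKM, with groups apart in the higher direction (adjusted p = 0.223). Acadm, the medium-chain enzyme, had 9.15 ± 0.398 and 9.08 ± 0.281 FPKM (adjusted p = 0.918), and Acads, the short-chain enzyme, 12.0 ± 2.11 and 13.5 ± 1.28 FPKM (adjusted p = 0.353). Acadvl, the very-long-chain enzyme, had 17.1 ± 1.97 and 14.8 ± 0.926 FPKM (adjusted p = 0.143). It passed as lower without scrambled siRNA replicate 1 (adjusted p = 0.0318), and 42.9% of its exon bases overlap exons of Dvl2 on the other strand. The summed FPKM of the 4 was 71.7 to 79.9 after scrambled siRNA and 76.9 to 81.5 after Tfeb siRNA, so the groups overlapped. Electrons from these enzymes pass to the flavoprotein of Etfa and Etfb and on to Etfdh, its ubiquinone oxidoreductase. None of these 3 passed (adjusted p = 0.269, 0.130 and 0.0799). Etfb and Etfdh had groups apart in the lower direction, at 7.83 ± 0.545 and 7.04 ± 0.11 FPKM and at 8.65 ± 0.665 and 7.31 ± 0.672 FPKM. Of the 50-base words of Etfb, 44.8% recur elsewhere, mostly in the overlapping Gm45233, so its reads are uncertain.

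At the far end of the spiral, all 3 mitochondrial thiolase genes of the set fell, a group singled out after the values were seen. Among all tested genes 16.4% fell, and a group picked this way cannot be compared with that share. Acaa2, the medium-chain 3-ketoacyl-CoA thiolase, had 38.8, 38.6 and 38.8 FPKM after scrambled siRNA and 32.8, 29.8 and 32.7 FPKM after Tfeb siRNA. Its scrambled siRNA libraries were almost equal and the Tfeb siRNA libraries all lower (log2 fold change -0.28, SE 0.05, adjusted p = 0.00795). Acat1, the acetoacetyl-CoA thiolase that also serves ketone bodies and isoleucine breakdown, had 14.4, 14.8 and 14.8 FPKM after scrambled siRNA and 12.9, 11.9 and 12.1 FPKM after Tfeb siRNA (log2 fold change -0.25, SE 0.05, adjusted p = 0.0119). Hadhb, which carries the long-chain thiolase of the trifunctional protein, had 5.59, 5.57 and 5.90 FPKM after scrambled siRNA and 4.39, 4.68 and 4.85 FPKM after Tfeb siRNA (log2 fold change -0.27, SE 0.06, adjusted p = 0.0175). The groups were apart for each of the 3 genes. The Hadhb call was lost without scrambled siRNA replicate 3 (adjusted p = 0.0667) and without Tfeb siRNA replicate 1 (0.0522), and 19.7% of its 50-base words recur in other transcripts.

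The middle steps did not pass. Hadha, the other subunit of the trifunctional protein, which carries its hydratase and dehydrogenase, had 17.0, 15.5 and 14.9 FPKM after scrambled siRNA and 16.8, 14.7 and 16.8 FPKM after Tfeb siRNA. The groups overlap (log2 fold change 0.03, SE 0.08, adjusted p = 0.810). Echs1, the short-chain hydratase, had 4.38 ± 0.229 and 4.25 ± 0.114 FPKM (adjusted p = 0.684), and Hadh, the short-chain 3-hydroxyacyl-CoA dehydrogenase, 15.2 ± 0.451 and 15.9 ± 1.26 FPKM (adjusted p = 0.517). Among the auxiliary enzymes that handle unsaturated chains, Eci2, an enoyl-CoA isomerase of mitochondria and peroxisomes (chromosome 13, 34977748 to 35027096, minus strand), had 11.3, 10.9 and 10.8 FPKM in replicates 1, 2 and 3 of scrambled siRNA and 7.74, 7.59 and 8.30 FPKM in replicates 1, 2 and 3 of Tfeb siRNA. It fell 1.40-fold with no overlap (log2 fold change -0.46, SE 0.06, adjusted p = 0.00148), and 11.1% of its words recur elsewhere. Its mitochondrial relative Eci1 had 26.0 ± 0.871 and 28.8 ± 1.15 FPKM, with groups apart in the higher direction (adjusted p = 0.0749, and 0.0434 with the replicate number as a block, where it passed). Decr1, the dienoyl-CoA reductase, had 8.21 ± 0.695 and 8.52 ± 0.108 FPKM and Ech1, a dienoyl-CoA isomerase, 18.3 ± 1.40 and 17.1 ± 1.39 FPKM, neither passing (adjusted p = 0.590 and 0.385).

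Ratios within each library restate these splits without any scaling between libraries. The 3 pairs were picked after their values were seen, and the ratios are of FPKM, so they depend on the deposited gene lengths, while their differences between groups do not. Cpt1a over Cpt1c was 2.36, 2.36 and 2.44 in scrambled siRNA replicates 1, 2 and 3 and 1.6, 1.24 and 1.41 in Tfeb siRNA replicates 1, 2 and 3, a log2 difference of -0.76. Acsl1 over Acsl5 was 0.219, 0.177 and 0.186 in scrambled siRNA replicates 1, 2 and 3 and 0.0885, 0.0866 and 0.0869 in Tfeb siRNA replicates 1, 2 and 3, a log2 difference of -1.15. Hadhb over Hadha was 0.329, 0.36 and 0.396 in scrambled siRNA replicates 1, 2 and 3 and 0.261, 0.318 and 0.289 in Tfeb siRNA replicates 1, 2 and 3, a log2 difference of -0.32. For each pair every Tfeb siRNA library lay below every scrambled siRNA library. In the first 2 pairs this follows from the genes themselves, since the groups of each gene were already apart in opposite directions. Hadha and Hadhb lie head to head on chromosome 5, with 85 bases between their deposited starts.

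**Figure D3:**
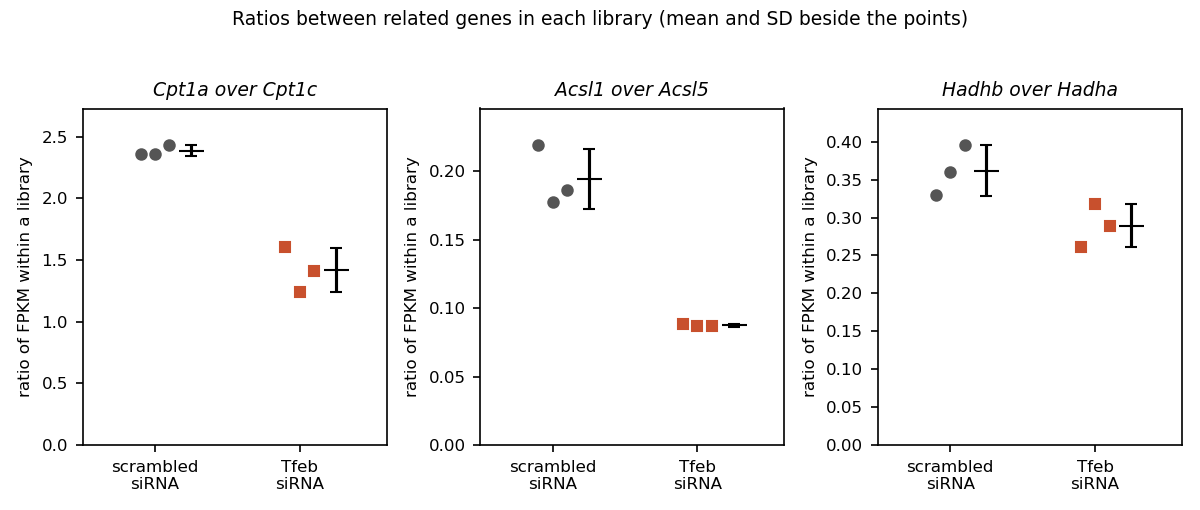
Ratio of FPKM between 2 genes within each library, on axes that start at 0, for Cpt1a over Cpt1c, Acsl1 over Acsl5 and Hadhb over Hadha. Points are libraries, and the bar beside them is the mean with SD; Tfeb siRNA libraries are lower in each panel.

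Of the 4 peroxisomal genes, 3 were tested and 2 fell, where 16.4% of all tested genes did. So few genes allow no comparison of shares. Acox3, an oxidase for branched chains, had 4.53, 4.22 and 4.52 FPKM after scrambled siRNA and 3.44, 3.13 and 3.52 FPKM after Tfeb siRNA (log2 fold change -0.35, SE 0.07, adjusted p = 0.0104). Hsd17b4, the bifunctional hydratase and dehydrogenase of the branched and very-long-chain route, had 34.8, 34.8 and 34.2 FPKM after scrambled siRNA and 29.4, 28.2 and 30.8 FPKM after Tfeb siRNA (log2 fold change -0.23, SE 0.05, adjusted p = 0.0131). Both had groups that do not overlap. Without replicate 1 of both groups, which leaves 2 libraries against 2, neither passed (adjusted p = 0.0529 and 0.0580). Acaa1a, the peroxisomal thiolase, had 9.61 ± 1.15 and 9.10 ± 0.117 FPKM (adjusted p = 0.582), with 17.1% of its words shared, mostly with Acaa1b. Ehhadh, the bifunctional enzyme of the PPAR alpha-induced straight-chain route, rested on 14 and 7 reads over the groups and was not tested. The thioesterases, which return acyl-CoA to free acid, showed no change that passed: Acot2 had 8.62 ± 2.05 and 8.93 ± 0.931 FPKM (adjusted p = 0.778), and Acot1 stayed below the filter at 0.581 ± 0.0776 and 0.615 ± 0.0677 FPKM. They share sequence with each other (27.7% of the words of Acot2 and 19.2% of those of Acot1).

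The order of levels depends on gene length. For 92.1% of the tested genes in GENCODE M21, the deposited length equals the union of all annotated exons, retained introns included. Echs1 is an example: its deposited length of 8286 bases is 5.32 times its longest coding transcript of 1557 bases. Its scrambled siRNA mean is 4.38 FPKM on the deposited length and would be 23.3 on the coding transcript. That moves it from rank 31 to rank 16 of the 38 genes. Plin2 is first on both scales, and Ppara and Pparg are the 2 lowest on both. A ratio of FPKM means between groups does not depend on the length, but the log2 fold change with its added 0.5 FPKM and the filter at 1 FPKM do, and the added 0.5 draws the change of low genes towards 0.

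Other genes of the pathway, from 5 related lists of 115 genes found in the table, also fell more often than they rose. Of 75 tested, 10 rose (13.3%), 26 fell (34.7%) and 39 did not pass, beside 16.9% higher and 16.4% lower among all tested genes. Their median log2 fold change was -0.11. These lists, like the 38 genes, were drawn up with earlier results of these data known.

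Peroxisomal enzymes, transporters and import factors outside the 38 had 2 members higher and 8 lower of 16 tested (median -0.22). Among all tested genes 16.9% were higher and 16.4% lower. Without scrambled siRNA replicate 3 the lower count of this list was 5. Scp2, whose products are the peroxisomal thiolase SCPx and a sterol carrier, had 16.2, 16.0 and 16.4 FPKM after scrambled siRNA and 8.96, 7.65 and 8.56 FPKM after Tfeb siRNA. It was 1.93-fold lower without overlap (log2 fold change -0.91, SE 0.07, adjusted p = 0.000324), and 29.7% of its words recur, mostly in a pseudogene. Pex11a, a PPAR alpha-inducible factor of peroxisome division, fell from 2.97 ± 0.406 to 1.59 ± 0.198 FPKM (adjusted p = 0.00456). Acox2, the oxidase of bile acid intermediates and branched chains, rose 2.49-fold, from 1.61 ± 0.158 to 4.01 ± 0.357 FPKM (log2 fold change 1.10, SE 0.10, adjusted p = 0.000597). Catalase, Cat, which removes the peroxide these oxidases make, rose from 33.9 ± 0.617 to 44.5 ± 5.70 FPKM (adjusted p = 0.0184), a call lost without scrambled siRNA replicate 2 or Tfeb siRNA replicate 1 (highest adjusted p over the alternatives 0.0865), which leaves 1 higher.

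Other mitochondrial acyl-CoA enzymes had 1 member higher (5.0%) and 9 lower (45.0%) of 20 tested (median -0.16). The shares of all tested genes were 16.9% and 16.4%. Acad11, a dehydrogenase of long and hydroxylated chains, fell from 6.28 ± 0.118 to 3.68 ± 0.261 FPKM (log2 fold change -0.70, SE 0.07, adjusted p = 0.000734). Its compartment was not examined here, and the title of the list does not settle it. Mcee, methylmalonyl-CoA epimerase, fell from 11.3 ± 2.01 to 7.32 ± 0.451 FPKM (adjusted p = 0.0109). Acad12 was the member called higher, at 1.36 ± 0.0489 and 1.85 ± 0.173 FPKM (adjusted p = 0.0488). It lost that call under 11 of 13 alternative settings, among them each library left out in turn (highest adjusted p = 0.147), so the count higher was 0 there, and 17.3% of its words recur, mostly in Acad10.

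Uptake, activation and shuttle genes had 2 higher and 5 lower of 10 tested (median -0.18). The shares over all tested genes were 16.9% higher and 16.4% lower, and 10 genes are few for a comparison. The lower count was 3 without scrambled siRNA replicate 1 or 3 or Tfeb siRNA replicate 1 or 2, and the higher count 1 without scrambled siRNA replicate 3 or any Tfeb siRNA library. Acaca, the acetyl-CoA carboxylase that makes malonyl-CoA, the inhibitor of CPT1, rose from 3.37 ± 0.156 to 4.48 ± 0.207 FPKM (log2 fold change 0.36, SE 0.07, adjusted p = 0.00811), although 30.4% of its words recur, mostly in Gm5182. Mlycd, which degrades malonyl-CoA, fell from 11.7 ± 0.625 to 8.43 ± 0.887 FPKM (log2 fold change -0.45, SE 0.09, adjusted p = 0.00767). Acacb, the other carboxylase gene of the list, was below the filter, with 299 reads after scrambled siRNA and 138 after Tfeb siRNA. It had 0.497 ± 0.126 and 0.247 ± 0.0863 FPKM, with groups apart in the lower direction. Malonyl-CoA itself was not measured. Slc27a1, a fatty acid transport protein, fell from 3.19 ± 0.344 to 2.23 ± 0.0595 FPKM (adjusted p = 0.0123). Fabp5, the epidermal fatty acid binding protein, rose from 4.79 ± 0.391 to 5.80 ± 0.308 FPKM (adjusted p = 0.0406), a call kept without scrambled siRNA replicate 1 and lost without any other single library (highest adjusted p = 0.125).

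Coregulators and energy sensors had 4 members higher (25.0%) and 1 lower (6.25%) of 16 tested (median 0.11), beside 16.9% and 16.4% of all tested genes. Without scrambled siRNA replicate 1, 2 were lower. Prkaa1, the alpha 1 catalytic subunit of AMPK, had 14.5, 14.4 and 14.5 FPKM after scrambled siRNA and 26.1, 24.8 and 24.4 FPKM after Tfeb siRNA. It rose 1.73-fold with groups far apart (log2 fold change 0.77, SE 0.05, adjusted p = 0.000199). Pprc1, a coactivator related to PGC-1, rose from 10.9 ± 0.568 to 15.2 ± 0.00778 FPKM (adjusted p = 0.00127), and Ncoa1, a steroid receptor coactivator, fell from 2.77 ± 0.146 to 1.58 ± 0.146 FPKM (adjusted p = 0.00289). Ppargc1a, named after its values were seen, stayed below the filter at 0.192 ± 0.0723 and 0.225 ± 0.0756 FPKM, with overlapping groups. Of the other PPAR targets and lipid droplet genes, 1 rose (7.69%) and 3 fell (23.1%) of 13 tested (median 0.02). In either direction 30.8% passed, beside 33.3% of all tested genes, 16.9% as higher and 16.4% as lower. Without scrambled siRNA replicate 3 or Tfeb siRNA replicate 1, 2 rose. Cyp4a12a, a fatty acid omega-hydroxylase, fell from 80.2 ± 2.78 to 24.9 ± 5.13 FPKM (log2 fold change -1.69, SE 0.14, adjusted p = 0.000417), but 48.9% of its words recur, mostly in Cyp4a12b. Fads1, the delta-5 desaturase, rose from 77.2 ± 2.21 to 102 ± 6.05 FPKM (adjusted p = 0.00313), and Tgm2, a transglutaminase, fell from 70.7 ± 1.18 to 57.9 ± 1.87 FPKM (adjusted p = 0.00489), with 21.8% of its exon bases under Gm20412 on the other strand. Pdk4 and Angptl4, PPAR-responsive genes named after their values were seen, did not pass. Pdk4 had 3.61 ± 0.214 and 3.13 ± 0.196 FPKM (adjusted p = 0.125). Angptl4 had 2.61 ± 0.229 and 3.19 ± 0.358 FPKM (adjusted p = 0.107). These genes do not stand for PPAR-responsive genes as a group, since Vnn1 and Pex11a fell.

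**Figure D4:**
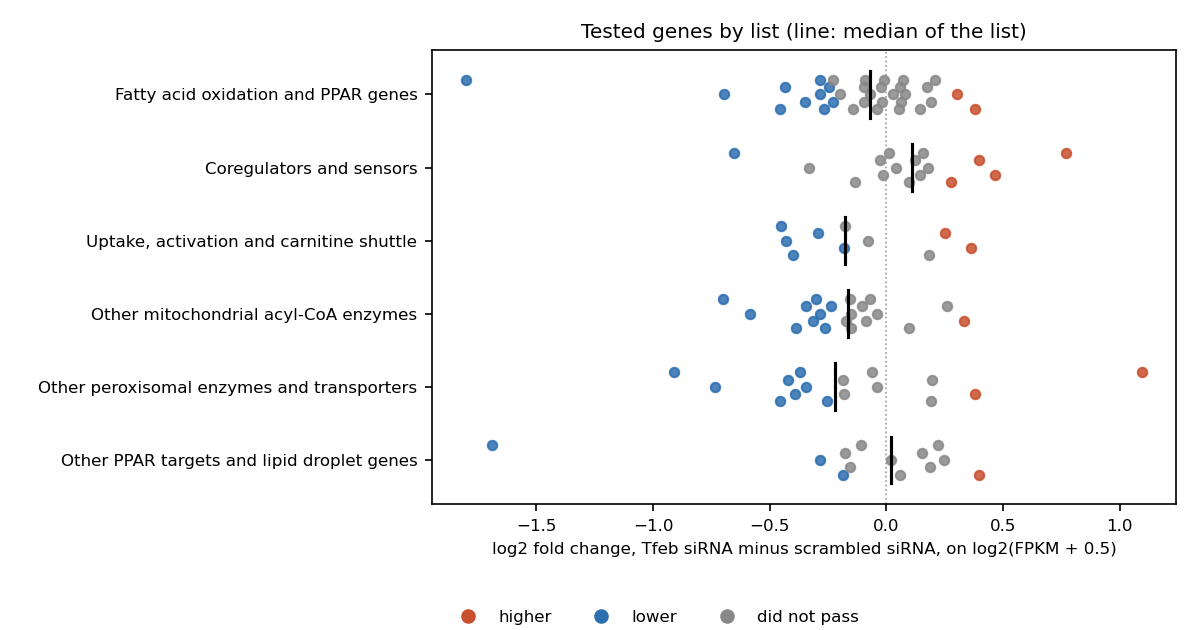
Log2 fold change of each tested gene in the 38-gene set (top row) and the 5 related lists, with the list's median as a line and colours for the limma call. The medians of the 3 middle rows, uptake to peroxisomal, lie between -0.16 and -0.22, while that of the coregulators is 0.11.

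Unintended targets of an siRNA are known to pair with its seed through sites in the 3′ UTR, so 8 heptamers were searched in the longest 3′ UTR that GENCODE M21 gives a gene. They had been picked earlier from the fold changes of these same libraries: the word CTACATA with the overlapping word TACATAA, and GGCCATG with the overlapping word GCCATGA, for falling genes. For rising genes they were TCGGAGA with the overlapping word CGGAGAA, and TGTCACG with the overlapping word GTCACGA. Of the 33 tested genes, 5 held a falling word (15.2%), against 30.9% of 10473 tested genes searched, and 0 held a rising word. Among the 10 that fell, 2 did: Acsl1 holds GGCCATG, and Acat1 holds CTACATA and TACATAA. The share was 46.0% of the 1872 falling genes searched, but the words were picked from these same falls, which raises that share. It is therefore no yardstick for the 10 genes. Vnn1, Cpt1a, Eci2, Acaa2, Hadhb, Crot, Acox3 and Hsd17b4 held none of the 8 words. Their 3′ UTRs ran from 163 bases in Eci2 to 1892 bases in Cpt1a. Length was not allowed for, and whether seed pairing had a part was not tested. The 28 tested genes without any of the 8 words comprised 2 that rose and 8 that fell. Over all tested genes searched, 6816 held none of the words, and of these 1240 rose and 972 fell. Among the related genes, 9 of the 26 that fell held a falling word (34.6%), as did 4 of the 10 that rose (40%) and 28.0% of the 75 tested. Pex11a and Ncoa1 are among those that fell, and Ncoa1 also holds the rising word TGTCACG.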

How the data were processed

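RNA-seq of 6 libraries was deposited as 1 table of FPKM values with gene positions and lengths, made by the authors and scaled to library depth, per the file headers; 0 columns of other samples were present. Positions are on mm10, a build named in the submitters' processing notes. Aligner, counter, annotation release and strand setting: not given in the sources used here. Multiplied by gene length, each FPKM equalled a whole number of steps, 1 step per library (100% of values above 0, tolerance 1e-06), which gave derived reads. These show counting error only, and depth limits statements on Ppara, Pparg, Ehhadh and Fabp3.

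Titles gave group and replicate number. Nothing in the labels says that replicates were separate cultures, so p-values measure only how these samples differ, and that spread may be technical. limma 3.58.1 (R 4.3.3) was fitted to log2(FPKM + 0.5) over 12257 genes whose mean reached 1 FPKM, with eBayes and a mean-variance trend, two-sided, Benjamini-Hochberg adjusted; the code was tested on simulated data. Genes below the filter had an exact permutation test. Same-numbered libraries had residual correlations of 0.382, 0.129 and 0.166, all above 0.1, the level set for pairing. Libraries of different number reached 0.106. The main fit, which had no replicate block, was kept although that level was met, and the block was run as an alternative. Principal component 2 (19.3% of variance) set replicate 1 of both groups apart.

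The 38 genes and all lists were chosen with earlier results of these data known. Called genes and receptors are given per library; from each related list, up to 2 called genes in each direction with the largest change. Shared 50-base words and exon overlaps came from GENCODE M21, promoters from RefSeq.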

Additional observations from a re-analysis of the deposited data

How the results depend on the processing

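The member counts (2 higher, 10 lower) moved by 1.5 times or less under the 14 alternatives run. With each library left out in turn, 2 to 3 were higher and 9 to 11 lower; related genes ran from 7 to 8 higher and 18 to 23 lower. With the replicate number as a block, 3 members were higher and 10 lower, and Eci1 was the member whose call changed. Among all tested genes that setting gave 20.7% higher and 19.5% lower. Without replicate 1 of both groups, an alternative added after seeing the data, 2 were higher and 7 lower. limma-voom on derived reads, also added, gave 2 and 11, with Etfdh passing as lower (adjusted p = 0.0377). Of the 12 called members, 9 kept their call under every alternative in which they were tested, and Hadhb, Acox3 and Hsd17b4 did not. With no filter on low values, the 5 members below it stayed uncalled (adjusted p from 0.566 to 0.995). The planned count models were not run, because the deposited values are FPKM. Tfeb, Acox3, Echs1, Acsl3 and Crat, whose means lie under 5 FPKM, have no value with the filter at 5 FPKM. Of the 21 members not called, 6 changed sign in some setting. Their log2 ranges with each library left out were -0.0788 to 0.0368 for Ppard, -0.0419 to 0.00878 for Rxra, -0.0372 to 0.0218 for Acadm, -0.0126 to 0.0898 for Hadha, -0.16 to 0.00614 for Acaa1a and -0.11 to 0.22 for Acot2. Hadha was -0.000367 with TPM, and without replicate 1 of both groups Acadm was 0.0297 and Acot2 -0.0436. The cause was not tested.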

Other observations

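Genes of the propionyl-CoA route, which turns the end of odd and branched chains into succinyl-CoA, were singled out after their values were seen. Besides Mcee, Pcca, a propionyl-CoA carboxylase subunit, fell from 4.17 ± 0.256 to 3.45 ± 0.186 FPKM (limma adjusted p = 0.0468; lost under 7 of 13 alternatives) and Mut, methylmalonyl-CoA mutase, from 11.6 ± 0.219 to 8.77 ± 0.987 FPKM (adjusted p = 0.0112). The other carboxylase subunit, Pccb, had 7.87 ± 0.211 and 6.94 ± 0.548 FPKM and did not pass (adjusted p = 0.0975). Oxct1, which activates the ketone body acetoacetate, fell from 38.9 ± 0.996 to 31.5 ± 1.83 FPKM (adjusted p = 0.00807).

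Peroxisome import factors were likewise singled out after their values were seen. Over all tested genes 16.4% fell, and a group picked this way cannot be compared with that share. Pex19, the chaperone of membrane proteins, fell from 29.1 ± 0.748 to 21.6 ± 1.80 FPKM (adjusted p = 0.00449). Pex5, the receptor for most matrix enzymes, fell from 17.6 ± 0.649 to 14.7 ± 0.794 FPKM (adjusted p = 0.0167; lost without scrambled siRNA replicate 2 or 3, 0.0598 at the highest). Pex7, another import factor, fell as well (log2 fold change -0.37, limma adjusted p = 0.0481), a call lost under 7 of 13 alternatives. Pex14, the docking factor, had 3.38 ± 0.528 and 3.92 ± 0.210 FPKM and did not pass (adjusted p = 0.218).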
